A study of Mus musculus with 5 samples.

Results

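NF_Calb1 is one of the 12 neuron types that the authors annotated in single-cell RNA-Seq data of mouse dorsal root ganglia, and it is named for neurofilament and for calbindin. Its members were the cells that carry this name in the deposited annotation, where it is spelled NF_Ca1b1, and they numbered 180 of 3352 cells. The study collected lumbar dorsal root ganglia from 5 untreated wild-type C57BL/6 adult mice of both sexes, dissociated them and made a Chromium 3′ library from each, so the design has 5 libraries of 1 group and no treatment. Each library was taken as 1 mouse. The libraries are called A to E here, and they were not matched to the labelled samples. NF_Calb1 accounted for 16 of 164 cells in library A, 29 of 539 in B, 44 of 474 in C, 24 of 805 in D and 67 of 1370 in E. Since the annotation came from clustering the same counts, types differ by construction. For this reason the levels of NF_Calb1 against other types are given as descriptions with no p-value.

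Dorsal root ganglion neurons carry touch, position, temperature, itch and pain from the body to the spinal cord. The neurons rich in neurofilament have large or medium cell bodies and myelinated axons that conduct fast, and they include the proprioceptors and the low-threshold mechanoreceptors of the skin. The receptor tyrosine kinases for the neurotrophins mark different lineages among sensory neurons, with TrkB (Ntrk2) in A-delta mechanoreceptors and TrkC (Ntrk3) in proprioceptors and in A-beta mechanoreceptors. Ret, the receptor for the glial cell line-derived neurotrophic factor family, is carried by other mechanoreceptors and by many nonpeptidergic nociceptors.

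The share of NF_Calb1 cells differed between libraries. It was 9.76% of the cells in library A (95% exact binomial interval 5.68 to 15.4), 5.38% in B (3.63 to 7.64), 9.28% in C (6.83 to 12.3), 2.98% in D (1.92 to 4.40) and 4.89% in E (3.81 to 6.17), with a mean of 6.46% ± 2.94 (SD, n = 5). The intervals of A and C lay above that of D and did not overlap it. The intervals cover counting error only, and all shares depend on which cells survived dissociation and capture. NF_Calb1 cells held a median of 77900 UMIs (unique molecular identifiers, each counting 1 captured RNA molecule; range 18106 to 201489) and 7882.5 genes. The median UMIs per cell were 92736.5, 102994, 81928.5, 68331 and 73778 in libraries A to E. They were on average 1.26-fold those of all other neurons (5 of 5 libraries higher, exact two-sided sign-flip test over libraries p = 0.062, the smallest that 5 libraries allow; adjusted p = 0.25 over 4 comparisons). With means in place of medians, the log2 difference from all other neurons of 0.33 became 0.153 (exact sign-flip p = 0.125). The other neurons were pooled here, and some single types were deeper than NF_Calb1. Medians over all cells were 105150 UMIs in NP_Mrgprd, 96530.5 in NF2_Ntrk2.Necab2 and 88652 in NP_Mrgpra3. The remaining neuron types were shallower, down to 30800.5 in PEP3_Trpm8. The ratio of medians was 1.05 to NF_Pvalb (adjusted p = 0.812, exact), 0.914 to NF2_Ntrk2.Necab2 (adjusted p = 0.812, exact) and 1.05 to PEP2_Htr3a.Sema5a (adjusted p = 0.75, exact). In these 3 comparisons of medians over all cells the libraries did not all point the same way. Against NF2_Ntrk2.Necab2 the log2 difference of -0.13 became -0.351 with means in place of medians and -0.598 with cells of at most 10% mitochondrial UMIs, lower in 5 of 5 libraries in both (exact p = 0.062, the smallest possible). A median of 7.11% of the UMIs of an NF_Calb1 cell came from the 37 mitochondrial rows, which include ribosomal and transfer RNAs, and 30 of the 180 cells were above 10%.

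The 3 markers that go with the name behaved differently from one another. All levels below are UMIs of the cells of a type added up in each library and divided by the total of that sum (CPM), with the mean ± SD over the 5 libraries. Calb1 encodes the calcium buffer calbindin (chromosome 4, 15881264 to 15906709, GRCm38). Its level in NF_Calb1 was 105, 213, 155, 221 and 345 CPM in libraries A to E, and in all other neurons together it was 6.43, 7.19, 2.87, 8.36 and 6.22 CPM. The mean of 208 ± 89.9 CPM was the highest of the 14 types, followed by 142 ± 107 CPM in PEP3_Trpm8 and 46.4 ± 67.0 CPM in NF2_Ntrk2.Necab2. The levels of NF_Calb1 and PEP3_Trpm8 differed by less than their combined spread.

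Only 103 of the 180 NF_Calb1 cells (57.2%) held any Calb1 UMI, against 38 of 58 cells (65.5%) of NF2_Ntrk2.Necab2 and 63 of 168 (37.5%) of PEP3_Trpm8. Satellite glia, which should lack the gene, gave a background of 6.02% at a median of 17729 UMIs. When every cell was thinned to 20000 UMIs, with shallower cells left out, the expected shares were 51.1% in NF_Calb1 (178 cells), 29.4% in NF2_Ntrk2.Necab2 (58 cells) and 4.33% in satellite glia (65 of 249 cells). The cells of NF_Calb1 with Calb1 held between 1 and 179 Calb1 UMIs, with a median of 32. The summed level was thus the highest of any type, while 77 of the cells had no Calb1 UMI at a median of 75499 UMIs per cell.

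Nefh, the heavy neurofilament subunit (chromosome 11, 4938754 to 4948064), was found in 180 of 180 NF_Calb1 cells. It was at 5004, 6665, 5544, 4572 and 4969 CPM in libraries A to E, against 812, 601, 834, 467 and 521 CPM in the other neurons, and no library overlapped between the groups. The share of satellite glia with a Nefh UMI was 65.9%, so detection alone says little about this gene, and the level in satellite glia was 95.1 CPM. NF_Pvalb had a similar mean of 5533 ± 1039 CPM and NF_Calb1 had 5351 ± 812 CPM, which differed by less than the spread between libraries. Ntrk3, the receptor for neurotrophin 3 (chromosome 7, 78179986 to 78581034), was at 399, 377, 405, 290.0 and 234 CPM in NF_Calb1 and at 31.7, 36.6, 43.9, 26.3 and 20.1 CPM in the other neurons. Its mean of 341 ± 75.6 CPM was the highest of the 14 types, ahead of 173 ± 23.8 CPM in NF_Pvalb. An Ntrk3 UMI was present in 161 of the NF_Calb1 cells (89.4%), against 6.02% of satellite glia.

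**Figure D1:**
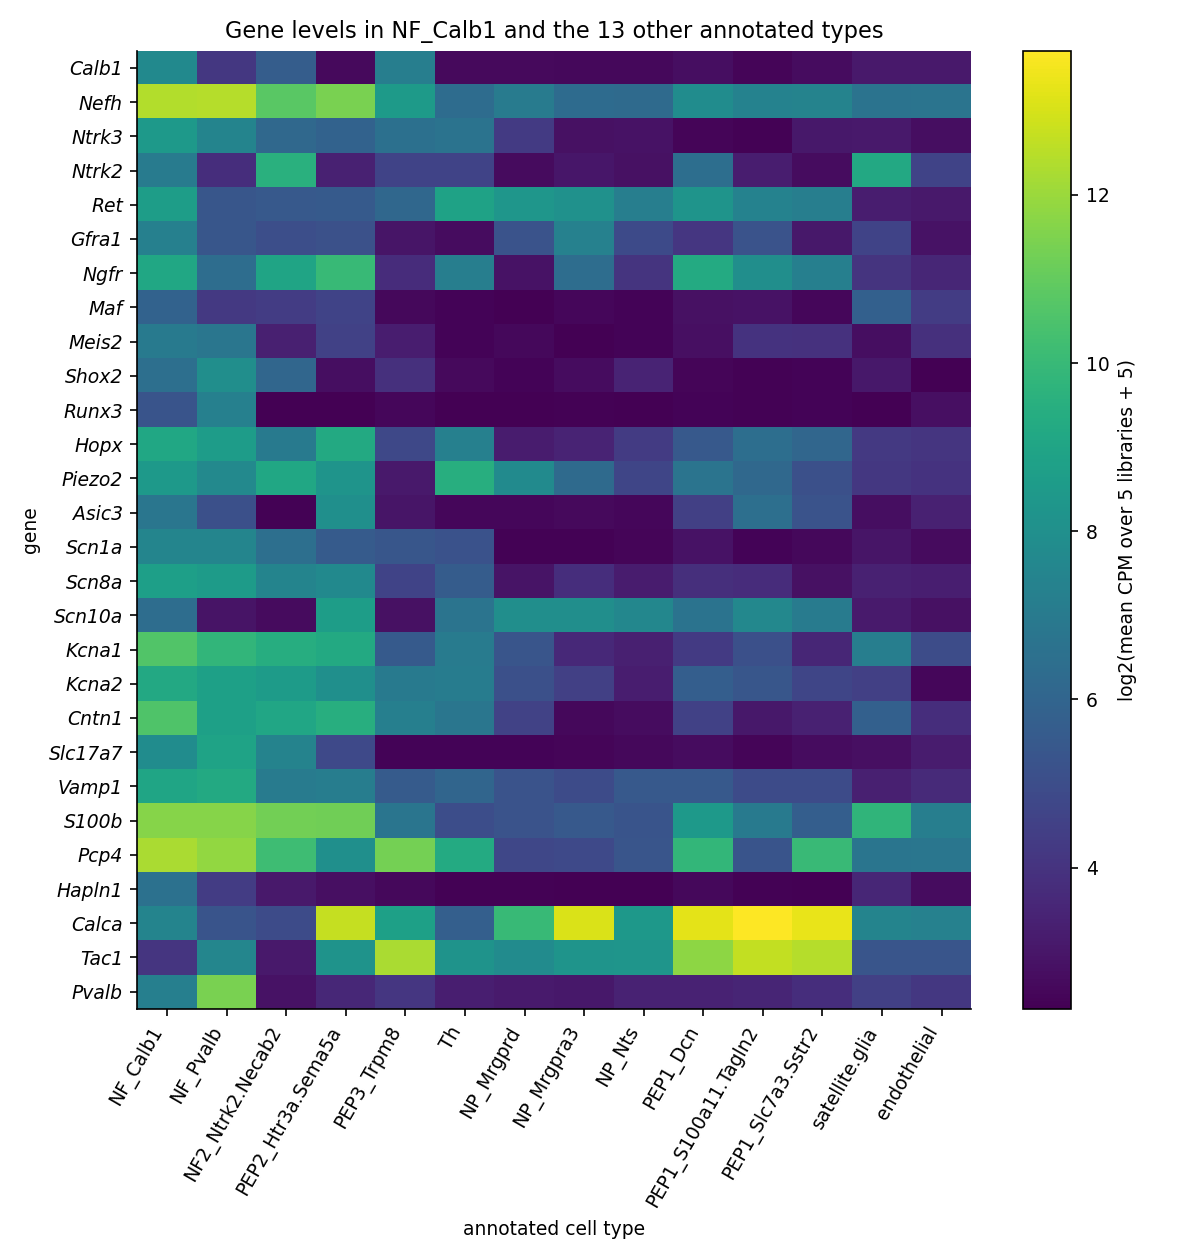
Levels of 28 genes (rows) in the 14 annotated types (columns), as log2 of the mean CPM over 5 libraries plus 5. NF_Calb1 is the first column; it shares high Nefh, S100b and Pcp4 with NF_Pvalb, and Calb1 is at 208 CPM there against 142 CPM in PEP3_Trpm8.

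Against all other neurons together, 9562 genes had a mean of at least 5 CPM over the sums compared. A gene was counted as higher or lower when its mean difference in log2(CPM + 5) reached 1 and had the same sign in 5 of 5 libraries. By this rule 1108 genes (11.6%) were higher and 771 (8.06%) were lower in NF_Calb1, and the median difference of all genes tested was 0.08. With TMM factors in place of the plain totals, 838 genes were higher and 981 lower, so the share of calls that were higher went from 59.0% to 46.1%, and the median of all genes moved to -0.07. The genes with the largest differences were Calb1, Hapln1, Ntng1, Cryab, Cntn1, Gda, Kcna1, Pcp4, Rasgrf2 and Meis2. Those with the most negative differences were Tac1, Fxyd2, Ly86, Tmem158, Ctxn3, Tmem45b, Prkcd, Tmem233, Fam89a and Paqr5.

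Hapln1, a link protein of the extracellular matrix around neurons, was at 72.3, 125, 85.2, 81.6 and 82.0 CPM in NF_Calb1 and at 1.15 ± 1.09 CPM in the other neurons. Ntng1, the axon guidance protein netrin G1, was at 68.8, 157, 202, 141 and 169.8 CPM against 4.68 ± 0.677, and its level in NF2_Ntrk2.Necab2 was nearly the same at 152 ± 25.8 CPM. Pcp4, a small regulator of calmodulin, was among the most abundant of these at 5281, 5053, 4572, 5027 and 4816 CPM, against 468 ± 118 CPM in the other neurons. Its levels in the 5 NF_Calb1 sums lay close together. At the other end, Tac1, the precursor of substance P, was at 4.30, 14.6, 24.7, 4.70 and 12.5 CPM in NF_Calb1 and at 1182 ± 230.2 CPM in the other neurons, with a difference of -6.23 ± 0.80. All libraries of NF_Calb1 were below all those of the other neurons for Tac1.

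The counts of lists against the other neurons below stand beside 11.6% higher and 8.06% lower of the 9562 genes tested. Among neurofilament and cytoskeleton genes, 5 of 15 were higher, 6 were lower and 4 were neither. The list median was -0.05. The light, medium and heavy neurofilament subunits were all among the higher genes, with differences of 1.75 ± 0.17 for Nefl, 2.70 ± 0.24 for Nefm and 3.06 ± 0.37 for Nefh. The microtubule-associated protein Map1b and the linker protein dystonin (Dst) were also higher. The lower genes included the intermediate filaments internexin (Ina, 1.01 against 56.6 CPM), peripherin (Prph, 1856 against 4766 CPM) and vimentin (Vim, 16.5 against 73.8 CPM), and the microtubule regulator stathmin (Stmn1, 133 against 1409 CPM). Peripherin is the filament of small unmyelinated neurons.

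Of 13 listed neurotrophic factor receptors, 11 were in the matrix and 10 passed the filter, with 4 higher, 4 lower and 2 neither. Ntrk3 had the largest difference at 3.24 ± 0.14. Ntrk2 was at 117, 105, 131, 143 and 153 CPM in NF_Calb1 and 23.7, 27.0, 38.1, 29.7 and 25.6 CPM in the other neurons, and no library overlapped. Its level in NF_Calb1 was well below that of NF2_Ntrk2.Necab2 at 756 ± 113 CPM. Satellite glia held 579 ± 55.9 CPM of Ntrk2. Gfra1, the co-receptor of Ret for the glial cell line-derived factor, was at 142, 186, 151, 146 and 132 CPM against 30.6 ± 2.17. The low-affinity neurotrophin receptor Ngfr was at 539.7 ± 67.6 CPM against 183 ± 51.2. The lower genes included Gfra2 (14.6 against 105 CPM), Gfra3 (0.210 against 97.4 CPM) and Kit (0.367 against 21.8 CPM). Ret itself (chromosome 6, 118151748 to 118197744) was at 255, 597, 421, 365 and 347 CPM in NF_Calb1 and 213, 279.6, 209, 225 and 245 CPM in the other neurons. The difference of 0.70 ± 0.34 was below the limit for a call. Th neurons carried more Ret (470.0 ± 48.1 CPM), and NP_Mrgprd held 314 ± 28.8 CPM.

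Of 31 transcription factors of sensory lineages, 29 were in the matrix and 20 passed the filter, with 8 higher, 5 lower and 7 neither, and the list median was 0.53. With equal weights for the 11 other types, 5 were higher and 6 lower. Maf, which is needed for rapidly adapting mechanoreceptors, was at 45.8, 70.5, 62.6, 49.3 and 44.4 CPM against 3.22 ± 0.863 in the other neurons. Meis2, a homeodomain factor of touch neurons, was at 96.7, 159.6, 142, 123 and 106 CPM against 7.98 ± 1.65. Maf and Meis2 had their highest means of the 14 types in NF_Calb1. Shox2, which is required for TrkB mechanoreceptors, was at 69.5, 68.8, 96.7, 82.2 and 107 CPM and was higher in NF_Pvalb (240.2 ± 74.2 CPM). Runx3, a factor of the TrkC lineage, was at 73.8, 23.9, 22.1, 28.2 and 22.0 CPM in NF_Calb1, with library A apart from the other 4. Hopx (2.37 ± 0.39), Nfia (2.61 ± 0.20), Nfib (1.18 ± 0.19) and Esrrg (1.29 ± 0.33) completed the higher group. The lower genes were Runx1 (-2.32 ± 0.60), which directs the nonpeptidergic nociceptor lineage, Klf7 (-1.98 ± 0.08), Prdm12 (-1.84 ± 0.39), Zfhx2 (-1.48 ± 0.09) and Tlx3 (-1.13 ± 0.05).

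Genes of mechanotransduction were mostly not set apart. Of 19 listed genes 17 were in the matrix and 11 passed the filter, and 2 were higher, 1 was lower and 8 were neither, with a median of 0.04. Of all genes tested, 11.6% were higher and 8.06% lower. Piezo2, the main channel of light touch, was at 292, 353, 391, 337 and 352 CPM in NF_Calb1 and 202, 253, 219, 196 and 194 CPM in the other neurons. The libraries did not overlap, but the difference was 0.68 ± 0.18, and Th neurons (709.9 ± 93.6 CPM) and NF2_Ntrk2.Necab2 (546 ± 47.5 CPM) had more. The acid-sensing channels Asic3 (106 against 32.9 CPM) and Asic1 (48.2 against 17.0 CPM) were higher, and the potassium channel Kcnk2 (1.22 against 25.6 CPM) was lower.

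The sodium channel genes split in both directions, with 5 higher, 5 lower and 3 neither among the 13 of 16 that passed the filter and a median of -0.18. Scn8a, the channel of the nodes of Ranvier (Nav1.6), was at 438, 500.4, 512, 332 and 372 CPM against 60.2, 43.0, 63.3, 33.9 and 34.7 CPM in the other neurons. Scn1a (Nav1.1) was at 198, 171, 224, 140.3 and 143 CPM against 18.2 ± 8.01. No library overlapped for either gene. The beta subunit Scn4b (2.35 ± 0.12) and the sodium sensor Scn7a (1.90 ± 0.16) were also higher. Scn10a, the tetrodotoxin-resistant channel of nociceptors (Nav1.8), was at 100.3, 80.1, 128, 12.9 and 68.5 CPM against 193, 216, 210.4, 179.6 and 194 CPM, and the NF_Calb1 value of library D stood well below the rest. Scn11a (-1.74 ± 0.43), the channel Nav1.9, Scn3b (-2.16 ± 0.44), Scn2b (-1.84 ± 0.27) and Fgf13 (-1.90 ± 0.22) were lower as well.

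Of the potassium channels, 26 of 36 genes passed the filter, and 11 were higher, 6 were lower and 9 were neither (10 higher and 8 lower with TMM factors), where 11.6% of all genes were higher and 8.06% lower. The list median was 0.81. Kcna1 (Kv1.1), which sits beside the nodes, was at 1393, 1929, 1877, 1287 and 1437 CPM against 187, 135, 179.5, 99.0 and 114 CPM in the other neurons. Its partner Kcna2 (Kv1.2) was at 632, 642, 534, 566 and 499.8 CPM against 86.8 ± 19.7, and the auxiliary subunit Kcnab2 differed by 1.68 ± 0.13. Both Kcna1 and Kcna2 were highest in NF_Calb1 among the 14 types. The fast delayed rectifiers Kcnc4 (1.88 ± 0.16) and Kcnc1 (1.34 ± 0.37) were higher, as were Kcnh2 (2.66 ± 0.19) and the silent subunit Kcns1 (2.33 ± 0.39). The A-type channel partners Kcnip2 (-3.22 ± 0.62) and Kcnip4 (-2.76 ± 0.38) were lower. Of the pacemaker channels, Hcn2 differed by 1.72 ± 0.17 and Hcn3 by -1.07 ± 0.08. Among 10 calcium channel genes that passed the filter, Cacna1a (1.68 ± 0.16) and Cacna2d3 (1.93 ± 0.15) were higher, and Cacna1c (-2.12 ± 0.34), Cacna2d1 (-1.54 ± 0.22) and Cacna2d2 (-1.06 ± 0.34) were lower, with a median of -0.34.

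The list with the most members in one direction on the higher side was that of the node of Ranvier and axon contact, with 15 of 19 higher, 1 lower and 3 neither and a median of 1.58, against 0.08 over all genes tested. With TMM factors 13 were higher, and with equal weights for the 11 other types 12 were higher, with 1 lower in both. Cntn1 (contactin 1) was at 1539, 1576, 1732, 1194 and 1567 CPM in NF_Calb1 and 162, 106, 159, 85.6 and 98.3 CPM in the other neurons. Lgi3 (3.12 ± 0.21), neurofascin (Nfasc, 2.84 ± 0.22), Nrcam (2.78 ± 0.13), Adam23 (2.52 ± 0.21) and Cntnap1 (2.49 ± 0.18), proteins of the node and its flanks, were also higher. Ncam1 was the lower one (13.5 against 124 CPM). In the opposite direction, 22 of the 24 nociceptor and itch genes that passed (of 31 listed) were lower and 1, the nociceptin receptor Oprl1, was higher, with a median of -2.88. The filter took the mean over both groups, so a gene nearly absent from NF_Calb1 passed only through the other neurons. Such a gene could only come out lower, which limits what this count shows. Against NF_Pvalb only 12 of the listed genes passed. Calca, the precursor of calcitonin gene-related peptide, was at 88.8, 172, 274, 88.0 and 243 CPM against 3972, 2865, 3848, 3035 and 2824 CPM. Galanin (Gal, -4.57 ± 0.09), Trpv1 (-3.78 ± 0.19), Mrgprd (-4.41 ± 0.20) and P2rx3 (-1.86 ± 0.42) followed it. Both lists had fewer members called against each of NF_Pvalb, NF2_Ntrk2.Necab2 and PEP2_Htr3a.Sema5a, as given below.

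**Figure D2:**
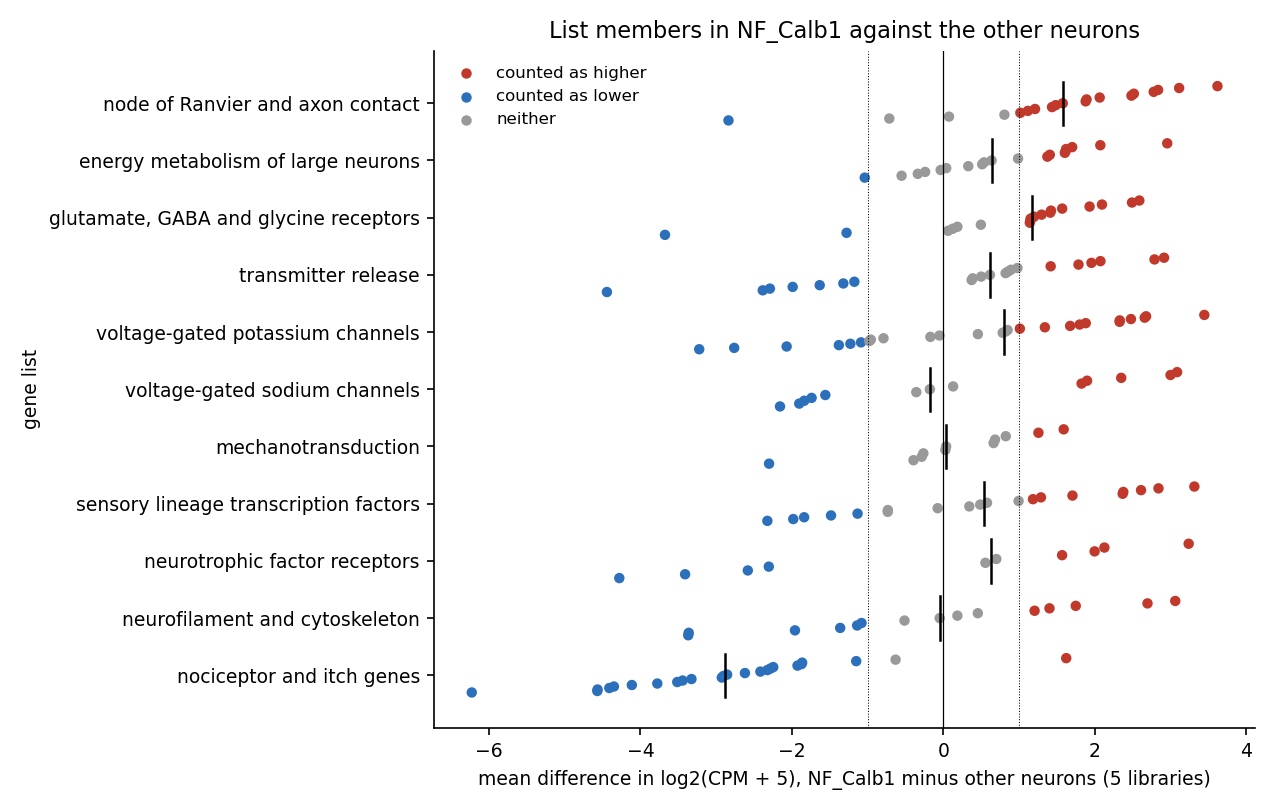
Each point is a listed gene that passed the filter, placed by its mean difference in log2(CPM + 5) between NF_Calb1 and the other neurons over 5 libraries, and the bar is the list median. Of the node and axon contact genes 15 of 19 lie at or above 1, and 22 of 24 nociceptor and itch genes lie at or below -1. With TMM factors 13 node and axon contact genes were counted as higher, and with equal weights for the 11 other types 12 were. Genes nearly absent from NF_Calb1 passed the filter only through the other neurons, so they could only come out lower.

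Transmitter release genes were divided, with 6 higher, 7 lower and 8 neither among 21 and a median of 0.62. Slc17a7, the vesicular glutamate transporter VGLUT1, was at 221, 296, 224, 193 and 206 CPM against 25.9 ± 5.22 in the other neurons. The vesicle protein Vamp1 was at 571, 687, 362, 469.6 and 506 CPM against 69.7 ± 10.3, while Vamp2 was lower (-1.32 ± 0.11). Both Slc17a7 and Vamp1 had a higher mean in NF_Pvalb. The calcium sensors Syt5 (-4.44 ± 0.33), Syt7 (-2.38 ± 0.22) and Syt1 (-1.63 ± 0.38) were lower and Syt2 (1.79 ± 0.13) was higher. Of 18 receptors for glutamate, GABA and glycine, 12 were higher, 2 were lower and 4 were neither, with a median of 1.18. With TMM factors 10 were higher, and with equal weights for the 11 other types 7 were higher, with 2 lower in both. The GABA receptor subunits Gabrb2 (2.59 ± 0.30) and Gabrg1 (2.49 ± 0.35) were the foremost of these, and the kainate receptor Grik1 (-3.68 ± 0.32) was the lowest.

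Among calcium-binding proteins 5 of 21 were higher, 4 were lower and 12 were neither, with a median of 0.23. Of all genes tested, 11.6% were higher and 8.06% lower. S100b was at 3029, 3495, 3217, 2860.2 and 3558 CPM in NF_Calb1, against 481 ± 102 in the other neurons, and NF_Pvalb had the same mean within the spread (3227 ± 348 CPM). S100a11 (-4.67 ± 0.64) was lower. Genes of energy supply were higher for 8 of 19, lower for 1 and neither for 10, with a median of 0.64. With equal weights for the 11 other types, 6 of them were higher and 0 lower. The calcium pump Atp2b2 (2.96 ± 0.11) and the mitochondrial regulator Ppargc1a (2.07 ± 0.34) were among the higher genes. Of 10 injury and immediate early genes, Csrp1 was higher, Gap43 and Junb were lower and 7 were neither, with a median of -0.16.

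RNA of other cells was present at low levels. The 16 markers of satellite glia and Schwann cells summed to between 484 and 804 CPM in the NF_Calb1 libraries, against 798 to 1081 CPM in the other neurons and 83112 to 106442 CPM in satellite glia. Of these markers 14 had a UMI in NF_Calb1, while the Schwann cell genes Prx and Cdh19 were at 0, and Pmp22, which neurons also express, had the most UMIs. None of the 8 that passed the filter was higher and 3 (Cnp, Mal and Mbp) were lower. The 10 endothelial markers summed to 52.2 to 77.5 CPM, the 10 markers of fibroblasts and pericytes to 9.64 to 21.4 CPM, and the 10 macrophage markers to 1.27 to 2.35 CPM, with 6 of the last at 0. The glial marker Apoe was at 45.8, 86.8, 262, 312 and 47.8 CPM in NF_Calb1, and libraries C and D were above the others. Of the cell barcodes, 7 were found in more than 1 library, and 3 of these included an NF_Calb1 cell.

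NF_Calb1 was next set beside the 3 neuron types that share neurofilament with it. Against NF_Pvalb, 496 of 9371 genes (5.29%) were higher and 263 (2.81%) were lower in NF_Calb1. Against NF2_Ntrk2.Necab2, 604 of 9289 (6.5%) were higher and 215 (2.31%) were lower, and the median difference of all genes tested was 0.13. Against PEP2_Htr3a.Sema5a, 457 of 9510 (4.81%) were higher and 370 (3.89%) were lower. Of the 19 node and axon contact genes, 4 were higher and 3 lower against NF_Pvalb (median 0.35). They were 7 and 1 against NF2_Ntrk2.Necab2 (median 0.79) and 5 and 1 against PEP2_Htr3a.Sema5a (median 0.50). Of nociceptor and itch genes, 5 of 12 were higher and 4 lower against NF_Pvalb (median -0.07). They were 5 and 2 of 14 against NF2_Ntrk2.Necab2 (median 0.75) and 3 and 9 of 14 against PEP2_Htr3a.Sema5a (median -1.62). The 3 comparisons share the NF_Calb1 sums, and the library sums of NF2_Ntrk2.Necab2 held few cells (58 in all).

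Ret stood out beside all of these types. Its level was 397 ± 127 CPM in NF_Calb1, against 35.9 ± 10.1 in NF_Pvalb, 40.2 ± 16.4 in NF2_Ntrk2.Necab2 and 41.6 ± 19.6 in PEP2_Htr3a.Sema5a, and the log2 differences were 3.27 ± 0.42, 3.20 ± 0.75 and 3.19 ± 0.79. Its co-receptor Gfra1 differed by 1.92 ± 0.38, 2.49 ± 0.86 and 2.16 ± 0.40, and Hapln1 by 2.47 ± 1.12, 3.75 ± 1.15 and 3.76 ± 0.40. A Ret UMI was present in 177 of 180 NF_Calb1 cells, and in 92.4% of them after thinning to 20000 UMIs, against 46.0% in NF_Pvalb, 44.7% in NF2_Ntrk2.Necab2 and 34.5% in PEP2_Htr3a.Sema5a.

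The genes with the largest differences over NF_Pvalb were Pcp4l1, Cplx2, Nrp1, S100a16 and Basp1, and those lowest against it were Ina, Whrn, Pvalb, Pln and Kcnip2. Complexin 2 (Cplx2) was at 285 CPM in NF_Calb1 and 3.92 CPM in NF_Pvalb. Parvalbumin (Pvalb) was at 236, 70.2, 47.8, 212 and 174 CPM in NF_Calb1, against a mean of 2773 ± 321 CPM in NF_Pvalb, and was still the second highest of the 14 types. Against NF2_Ntrk2.Necab2, Slc24a2, Trappc3l, Cplx2, Tmem229b and S100a16 were the highest and Fxyd2, Pdlim1, Fam89a, Ppp1r1a and P2ry1 the lowest. Fxyd2, a regulator of the sodium pump, was at 117 CPM in NF_Calb1 and 10027 CPM there. Against PEP2_Htr3a.Sema5a, Gda, Calb1, Ntng1, Hs3st2 and Pcp4 were the highest, and Calca, Aqp1, Kcnmb1 and Cd9 were among the lowest. Calca was at 173 CPM in NF_Calb1 and 6715 CPM in that type.

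**Figure D3:**
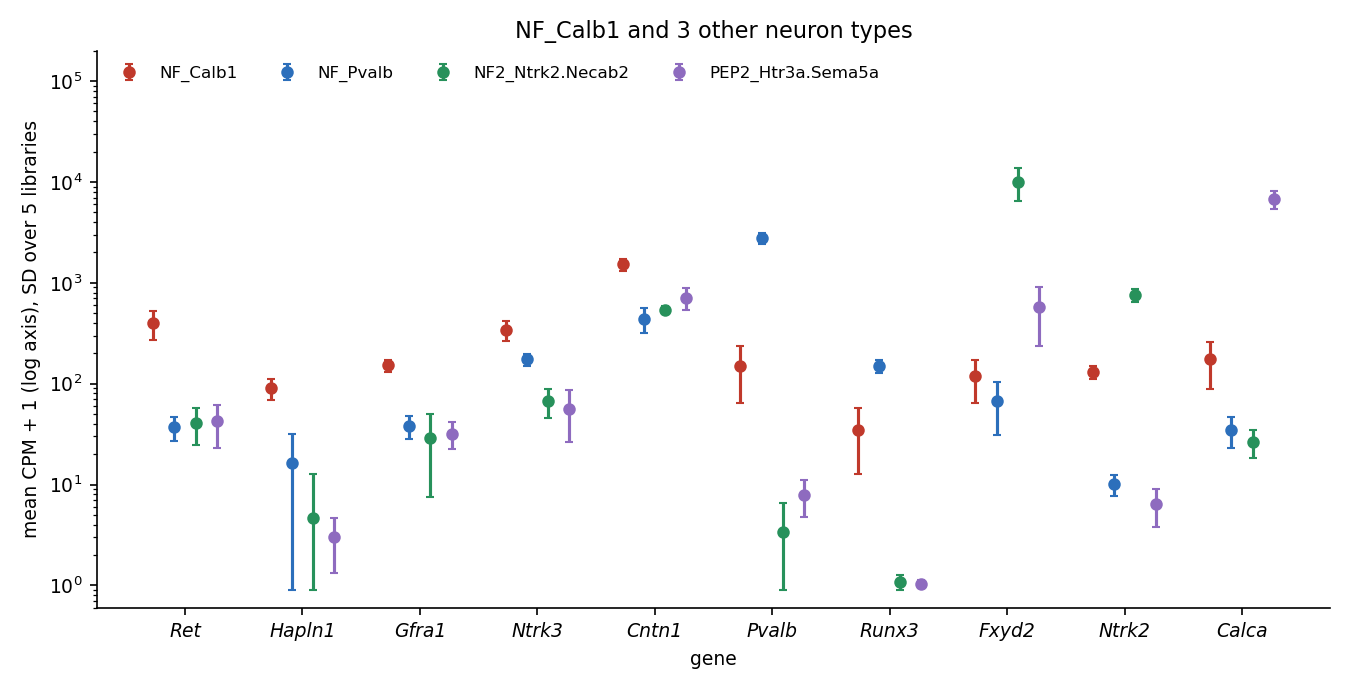
Mean CPM plus 1 on a log axis, with the SD over 5 libraries, of 10 genes in NF_Calb1 and 3 other neuron types; lower error bars are cut near the bottom of the axis where the SD exceeds the mean. Ret is at 397 CPM in NF_Calb1 and between 35.9 and 41.6 CPM in the others, while Pvalb, Fxyd2 and Calca are each highest in another type.

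The presence of Calb1 in only part of the cells allowed a test within NF_Calb1. The 103 cells with a Calb1 UMI and the 77 without were added up separately in each library (6 and 10 cells in A, 17 and 12 in B, 20 and 24 in C, 14 and 10 in D, 46 and 21 in E), and compared with edgeR's quasi-likelihood test with the library as a block. The split used the Calb1 row alone, and Calb1 was left out of the test. The cells tested had themselves been placed in NF_Calb1 by clustering the same counts, so the grouping was not independent of the other genes. The p-values of the split therefore hold only within cells chosen in this way. How far that choice shaped the differences between cells with and without Calb1 was not tested. Of 8502 genes, 251 (2.95%) were higher and 263 (3.09%) were lower in the cells with Calb1 at an adjusted p under 0.05, and the median log2 fold change of all genes was 0.00. The median UMIs per cell were 79709 with and 75499 without Calb1. In library A the cells with Calb1 were much shallower, at 57296 against 102978.5 UMIs.

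The clearest contrast was between the neurotrophin receptors. Ntrk2 (chromosome 13, 58806472 to 59133970) was at 379.9, 172, 254, 245 and 208 CPM in the cells with Calb1 of libraries A to E, and at 23.4, 16.3, 29.8, 15.8 and 12.6 CPM in those without. The groups did not overlap, and the log2 fold change was 3.63 ± 0.18 (SE, higher in 5 of 5 libraries, edgeR adjusted p = 1.23e-07). Ntrk3 ran the other way, at 136, 168, 177, 127 and 65.4 CPM with Calb1 and 493, 655, 594, 491 and 667 CPM without, with a log2 fold change of -2.18 ± 0.20 (lower in 5 of 5 libraries, edgeR adjusted p = 3.68e-05). In single cells, Ntrk2 UMIs outnumbered Ntrk3 UMIs in 80 of 103 cells with Calb1, and Ntrk3 outnumbered Ntrk2 in 75 of 77 cells without. By library the former were 4 of 6 cells in A, 9 of 17 in B, 17 of 20 in C, 11 of 14 in D and 39 of 46 in E. Since 3′ counts do not compare levels between genes, these counts do not show which receptor was more abundant in a cell. Both receptors had a UMI in 130 of the 180 cells, 79 with Calb1 and 51 without. Here 1 UMI counted as presence, and Ntrk2 had a mean of only 19.6 CPM in the cells without Calb1. An Ntrk2 UMI was also found in 41 of 113 NF_Pvalb cells, 37 of 206 PEP2_Htr3a.Sema5a cells and 58 of 58 NF2_Ntrk2.Necab2 cells. Whether single cells expressed both receptors, or held RNA of other cells, was not tested. Satellite glia also express Ntrk2, and there Apoe was at 78916 CPM beside 579 CPM of Ntrk2, while Apoe in NF_Calb1 was at 197 ± 209.9 CPM with Calb1 and 99.7 ± 85.7 CPM without. Cells with Calb1 that had more Ntrk3 than Ntrk2 numbered 19, and 4 had equal counts. Several of these 19 held only 1 Calb1 UMI, while 91 of the 103 cells held 2 or more.

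Ret did not pass the test in this split. It was at 437, 675, 402, 319.5 and 304 CPM with Calb1 and 189.8, 493, 436, 421 and 457 CPM without, and the 5 libraries overlapped and pointed both ways (0.08 ± 0.20, SE, edgeR adjusted p = 0.887). Nefh (-0.10 ± 0.15, edgeR adjusted p = 0.807), Maf (-0.18 ± 0.16, edgeR adjusted p = 0.633) and Piezo2 (-0.33 ± 0.15, edgeR adjusted p = 0.244) did not pass either. Both portions of NF_Calb1 carried Ret at several times the mean of 35.9 CPM in NF_Pvalb and 40.2 CPM in NF2_Ntrk2.Necab2. The co-receptors differed. Gfra2 was at 13.6, 27.4, 41.0, 18 and 28.5 CPM with Calb1 and 0.973, 0.775, 6.51, 0 and 0.742 CPM without (3.63 ± 0.39, edgeR adjusted p = 9.41e-05, higher in 5 of 5 libraries), and Gfra1 was lower with Calb1 (-0.71 ± 0.17, edgeR adjusted p = 0.0192), a call that was lost without library C or D (adjusted p up to 0.0898).

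**Figure D4:**
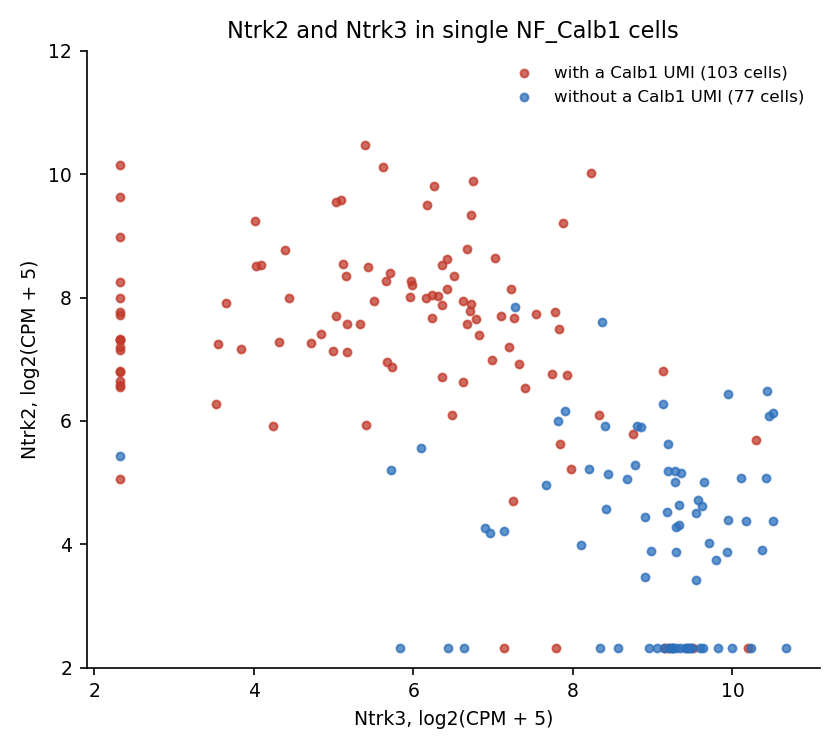
Each of the 180 NF_Calb1 cells by Ntrk3 (horizontal) and Ntrk2 (vertical), both as log2(CPM + 5), coloured by whether the cell had a Calb1 UMI; points along the left or lower edge have no UMI of that gene. Of the 77 cells without Calb1, 75 have more Ntrk3 than Ntrk2, some of them at low Ntrk3. Of the 103 cells with Calb1, 80 have more Ntrk2 than Ntrk3, and 39 of these 80 come from library E. The 3′ counts do not compare levels between genes, so the figure does not rank the receptors within a cell.

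The 10 genes with the smallest adjusted p that were higher with Calb1 were Ntrk2, Dapk1, Unc5d, Lhfpl2, Mef2c, Kcnk3, Sptb, Ngfrap1, Rasd2 and Kcnab1. Dapk1, a death-associated protein kinase, was at 147, 117, 101, 102 and 111 CPM with Calb1 and 4.87, 3.87, 3.72, 2.63 and 0 CPM without, and had a UMI in 90.3% and 11.7% of the cells. Mef2c, a transcription factor, was at 154 ± 31.1 against 29.8 ± 15.1 CPM, and Kcnk3, a leak potassium channel, at 68.6 ± 18.8 against 14.4 ± 6.11 CPM. Unc5d, a netrin receptor, was at 117, 52.4, 12.4, 17.0 and 21.3 CPM in the cells with Calb1 and was found in 17.5% of them, with library A far above the rest. The 10 lower genes were Syne4, Pcp4l1, Ntrk3, Crtac1, Fam19a4, Aldh1a7, Syt6, Ptgir, Syt7 and Nmb. Pcp4l1, a relative of Pcp4, was at 252, 270.3, 319, 317 and 270.4 CPM with Calb1 and 921, 1613, 902, 1394 and 1174 CPM without. Fam19a4, a secreted protein also called Tafa4, was at 0, 4.66, 4.49, 1.06 and 0.865 CPM with Calb1 and 16.5, 37.2, 28.8, 46.0 and 46.0 CPM without, and the peptide neuromedin B (Nmb) was at 38.3 ± 37.0 against 269 ± 86.3 CPM. For these 3 genes no library overlapped between the cells with and without Calb1.

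**Figure D5:**
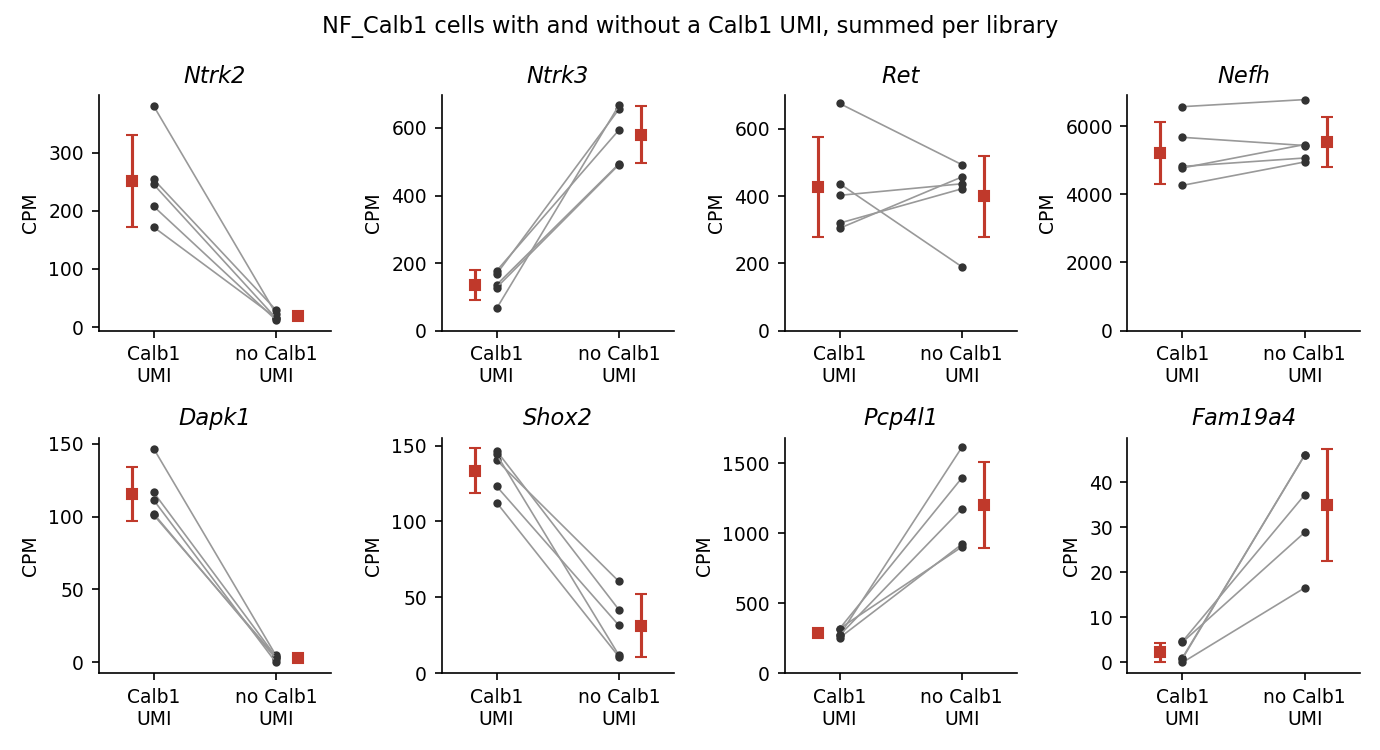
CPM of 8 genes in the NF_Calb1 cells with and without a Calb1 UMI, added up per library; lines join the values of 1 library, and squares with bars are the mean and SD of 5 libraries. Ntrk2, Dapk1 and Shox2 are higher with Calb1 in all libraries, Ntrk3, Pcp4l1 and Fam19a4 are lower in all, and Ret and Nefh point both ways.

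Among the 20 lineage transcription factors tested, 5 were higher with Calb1, 5 were lower and 10 did not pass, with a median log2 fold change of 0.03, where 2.95% of all genes tested were higher and 3.09% lower. Shox2 was at 147, 112, 140.4, 123 and 144 CPM with Calb1 and 41.9, 10.8, 60.5, 31.5 and 11.9 CPM without (2.23 ± 0.29, edgeR adjusted p = 0.000401). Runx1 was at 65.1, 32.6, 15.2, 82.8 and 37.2 CPM with and 9.73, 4.65, 10.2, 5.25 and 4.45 CPM without (2.42 ± 0.35, edgeR adjusted p = 0.000834). Runx3 was at 0, 23.9, 0, 8.49 and 13 CPM with and 100.2, 24.0, 40.5, 52.5 and 45.3 CPM without (-2.14 ± 0.51, edgeR adjusted p = 0.0231), and this call was lost with DESeq2 and without library D, with adjusted p between 7.14e-20 and 0.111 over the alternatives. Pou4f2 (1.72), Rora (0.79) and Tlx3 (0.65) were the other higher factors, and Prdm12 (-2.27), Meis2 (-1.17), Etv5 (-0.77) and Pou4f1 (-0.48) the other lower ones. Of the 10 calls, those of Shox2, Runx1, Pou4f2 and Meis2 held under every alternative in which they were tested. The other 6 were lost under at least 1, with adjusted p of up to 0.237 for Rora, 0.1 for Tlx3, 0.211 for Prdm12, 0.129 for Etv5 and 0.225 for Pou4f1.

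The counts of the lists that follow stand beside 2.95% higher and 3.09% lower of the 8502 genes tested. Of 10 sodium channel genes 1 was higher and 2 were lower, and of 21 potassium channel genes 1 was higher and 4 were lower. Of these 8 channel calls, 2 of the sodium and 3 of the potassium channels were lost under at least 1 alternative. The T-type calcium channel Cacna1h, known from A-delta mechanoreceptors, was at 10.9, 10.5, 24.1, 21.2 and 16.1 CPM with Calb1 and 0.973, 0.775, 1.86, 0 and 2.23 CPM without (3.61 ± 0.39, edgeR adjusted p = 9.44e-05), and was the single call among 9 calcium channel genes. Slc17a7 was higher with Calb1 (0.96 ± 0.13, edgeR adjusted p = 0.000692) at 301 ± 66.0 against 154 ± 32.0 CPM. Of the 20 transmitter release genes, Cplx1 was also higher, and Cplx2, Stx1a, Syt4, Syt7 and Syt9 were lower. The calls of Slc17a7 and Syt7 held under every alternative, and those of Cplx1, Cplx2, Stx1a, Syt4 and Syt9 did not (adjusted p up to 0.169, 0.119, 0.15, 0.0767 and 0.0541). The GABA receptor subunits Gabrb2 (0.98) and Gabrg1 (1.26) were higher, while Grik1 (-1.32) and Grin3a (-1.05) were lower, of 17 tested, and the calls of Gabrg1, Grik1 and Grin3a were lost under at least 1 alternative (adjusted p up to 0.075, 0.0564 and 0.0886). Among 18 energy genes 4 were higher (among them Aldoc, Ckmt1 and Esrra) and none was lower, with a median of 0.23, and each of the 4 calls was lost under at least 1 alternative (adjusted p up to 0.257 for Aldoc). Of 19 node and axon contact genes, Lgi2 and Spp1 were higher and Chl1 and Cntnap2 lower, and the 2 acid-sensing channels Asic1 and Asic3 were lower of 10 mechanotransduction genes. The calls of Lgi2 and Asic3 were lost under at least 1 alternative (adjusted p up to 0.167 and 0.0727). None of the 5 glial markers tested passed, and of the endothelial and fibroblast lists 1 gene each was tested, of which the endothelial one, Egfl7, was lower, a call that was lost without library B or D (adjusted p up to 0.075).

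Genes that mark the neighbouring types also moved in the split. Of 7 tested genes of NF2_Ntrk2.Necab2, 3 (Ntrk2, Cacna1h and Cadps2) were higher with Calb1 and none was lower, with a median of 1.10. Of 7 tested genes of PEP2_Htr3a.Sema5a, 6 (among them Calca, Fam19a1, Gfra1, Scn10a and Sema5a) were lower with Calb1, with a median of -1.96. The calls of Gfra1, Scn10a and Sema5a among these were lost under at least 1 alternative (adjusted p up to 0.142 for Sema5a). Of 8 genes of NF_Pvalb, Spp1 was higher and 4 (Fam19a1, Ntrk3, Pvalb and Runx3) were lower, but besides that of Runx3 the call of Pvalb (edgeR adjusted p = 0.0362, up to 0.292 over the alternatives) was lost with no replicate block, with DESeq2 and without library B, C or D. Scn10a was at 136, 170.4, 184, 0 and 239.8 CPM in the cells without Calb1 and 0, 12.2, 60.1, 23.4 and 2.02 CPM in those with, and library D ran the other way (edgeR adjusted p = 0.0263, up to 0.259 over the alternatives). Its call was lost without library B, with DESeq2 and with cells of at most 10% mitochondrial UMIs. Whether single cells of neighbouring types within the annotation contribute to these values was not tested.

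The counts of this test depended on the libraries. They fell to 154 higher and 144 lower without library B, to 155 lower without library C and to 160 lower without library E, each with fewer cells in the sums. Of the 20 genes named above by adjusted p, all kept their direction and their call under every alternative in which they were tested.

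Between the libraries, the genes of at least 20 CPM in NF_Calb1 that varied most included Xist, Gpx3, Ddx3y, Malat1, Rsad2, Apoe, Tor4a, Scn10a and Rn45s. The nuclear RNA Malat1 was at 6302, 2029.6, 12793, 737 and 1422 CPM in NF_Calb1 and 16459, 16289, 28450.2, 9548 and 11273 CPM in the other neurons, and libraries A and C were highest in NF_Calb1. Gpx3, an extracellular glutathione peroxidase, was at 254, 4.99, 17.6, 38.7 and 6.02 CPM in NF_Calb1, with library A far above the other 4, and at 363, 282, 261, 269 and 212 CPM in the other neurons. The interferon-induced gene Rsad2 was at 82.4, 3.32, 5.09, 35.8 and 2.28 CPM. The share of cells with Calb1 varied as well, at 37.5% in library A (95% exact interval 15.2 to 64.6), 58.6% in B (38.9 to 76.5), 45.5% in C (30.4 to 61.2), 58.3% in D (36.6 to 77.9) and 68.7% in E (56.2 to 79.4). These intervals all overlapped.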

How the data were processed

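The deposited values were raw UMI counts per gene and cell, which the authors made with Cell Ranger on mm10 with a UCSC gene model, and cell names from their Seurat clustering. Their stated filter removed cells above 10% mitochondrial UMIs, yet 30 NF_Calb1 cells exceeded it over the 37 mitochondrial rows used here. The authors loaded few cells to limit doublets, the sources used here name no doublet caller, and none was run. Libraries held 13050375 to 88886919 UMIs. Here 4 rows naming no mouse gene (143 UMIs) were dropped, rows of one symbol were added (17259 symbols), and counts were summed per library and type. Differences used log2(CPM + 5), which understates changes of low genes, with genes of at least 5 CPM. The split was tested with edgeR 4.0.16 (quasi-likelihood, library block, Benjamini-Hochberg adjustment over all genes), with DESeq2 1.42.0 as an alternative. Both sums of a library come from 1 mouse, which is the source of the pairing, and their deviations correlated at -0.145 to 0.371. Scripts were tested on simulated data.

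Named genes were members of listed groups, the 10 (or 5, for each of 3 near types) most different in either direction with the same sign in all libraries and 20 CPM or more, the 10 smallest adjusted p in each direction of the split, and the 10 most variable between libraries. The members and lists were chosen with earlier results of these data known. Gene positions are from RefSeq on GRCm38. Alternatives were other pseudocounts (1 and 10 CPM), TMM factors, no filter, cells up to 10% mitochondrial, means over cells, equal weights for the 11 other types, thinning to 40000 UMIs, at least 2 Calb1 UMIs, no block, and leaving out each library. The 3′ counts do not compare levels between genes. Without a statement on strand, overlapping genes were not separated. Some genes that the lists or the rule name are not reported here.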

Additional observations from a re-analysis of the deposited data

Results flagged for a closer look

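Of 68 sets of 5 library values examined for a single value far from the rest, 4 were flagged, and chance flags about 1 set in 20. Gpx3 in NF_Calb1 was at 254 CPM in library A, and its gap to the next value took 0.864 of the whole range. Runx3 in NF_Calb1 was at 73.8 CPM in library A, with a gap of 0.881 of the range, and library A held 16 NF_Calb1 cells. Hapln1 in NF_Calb1 was at 125 CPM in library B, with a gap of 0.757 of the range. The log2 ratio of Ntrk3 between cells with and without a Calb1 UMI, on the log2(CPM + 5) scale, was -3.25 in library E, with a gap of 0.86 of the range, and the other 4 libraries had the same direction.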

How the results depend on the processing

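Against the other neurons, equal weights for the 11 types, a setting chosen after the data were seen, gave 695 higher genes in place of 1108. In the split by Calb1, no filter on low counts gave 452 higher and 479 lower genes in place of 251 and 263, over 15615 genes in place of 8502. Leaving out each library in turn gave 154 to 235 higher and 144 to 260 lower genes. The fit with no replicate block gave 202 higher and 190 lower genes, and Pvalb lost its call there. DESeq2 gave 187 and 188. UMIs per cell against PEP2_Htr3a.Sema5a changed sign with means in place of medians (log2 difference -0.0109). Leaving out libraries gave log2 differences of -0.0106 to 0.186 against NF_Pvalb and -0.487 to 0.00418 against NF2_Ntrk2.Necab2. The share of NF_Calb1 cells with an Ntrk3 UMI, a mean of 92.5% over libraries, became 80.6% after thinning to 20000 UMIs and 83.8% with at least 2 UMIs. The causes were not tested. Of 81 genes of the lists and the naming rule that were called in the split, 45 kept the call under every alternative in which they were tested and 36 lost it under at least 1. None of these 81 changed sign. Against the other neurons, 3223 of 3696 values of 308 listed or named genes under alternatives moved by less than 1 SD between libraries and 473 by more, and no called gene changed sign. The precision is limited by 16 to 67 NF_Calb1 cells per library, and the sums of NF2_Ntrk2.Necab2 are smaller still.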
